A study of Mus musculus with 8 samples.

Results

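Cytokines that signal through JAK kinases and STAT factors induce their own inhibitors, and the 10 genes described here are the mouse SOCS family (Socs1 to Socs7 and Cish) together with the STAT-induced kinases Pim1 and Pim2. They were taken by name from the 47937 genes of the table, and each of the 10 was found. CD8 single-positive (CD8SP) TCRb+ thymocytes with high MHC-I, a late stage of CD8 cells in the thymus, were sorted from mice of 6 to 7 weeks, and 1 RNA library was made per mouse. The 4 control mice (Ndrg3ctrl) carried 1 floxed and 1 wild-type Ndrg3 allele with Lck-cre, and the 4 knockout mice (Ndrg3TKO) carried 2 floxed alleles with Lck-cre. Both groups therefore expressed Cre from the proximal Lck promoter, which is active from early thymocyte stages, so that the deletion preceded CD8SP maturation and no group without Cre was compared. Ndrg3 belongs to the N-myc downstream-regulated family, and the comparison asked how its loss alters transcripts of these cells.

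SOCS proteins share a central SH2 domain, which binds phosphotyrosine, and a C-terminal SOCS box, which recruits elongins and a cullin to form a ubiquitin ligase. CIS (the product of Cish), SOCS1, SOCS2 and SOCS3 have short N-termini and are classical products of STAT activity, and SOCS1 and SOCS3 also block JAK kinases directly through a kinase inhibitory region. SOCS4 to SOCS7 have long N-termini and are better known as adaptors in receptor tyrosine kinase signalling. Pim1 and Pim2 are constitutively active serine/threonine kinases that support survival and growth, so their level is set largely by how much is made. In the thymus IL-7 is the main cytokine that acts on CD8SP cells, and SOCS1 is needed to keep their response to common gamma chain cytokines in check.

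Socs3 was the member that changed. It rose in Ndrg3TKO thymocytes by 1.53-fold, whereas 8 other tested members did not pass the test and Socs2 was too low to be tested. Across all genes, 168 of 14633, or 1.15%, passed an adjusted p of 0.05 (quasi-likelihood test of edgeR, adjusted by Benjamini-Hochberg), and 116 genes, or 0.793%, rose. Of the 9 tested members 1 rose and 0 fell. At an unadjusted p under 0.05 there were 2 members, Socs3 and Pim2, beside 10.9% of all tested genes. The libraries of the 2 groups did not overlap for 1 of the 9, beside 7.04% of all tested genes. The median log2 fold change of the tested members was 0.0006, and that of all tested genes was -0.0033.

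**Figure D1:**
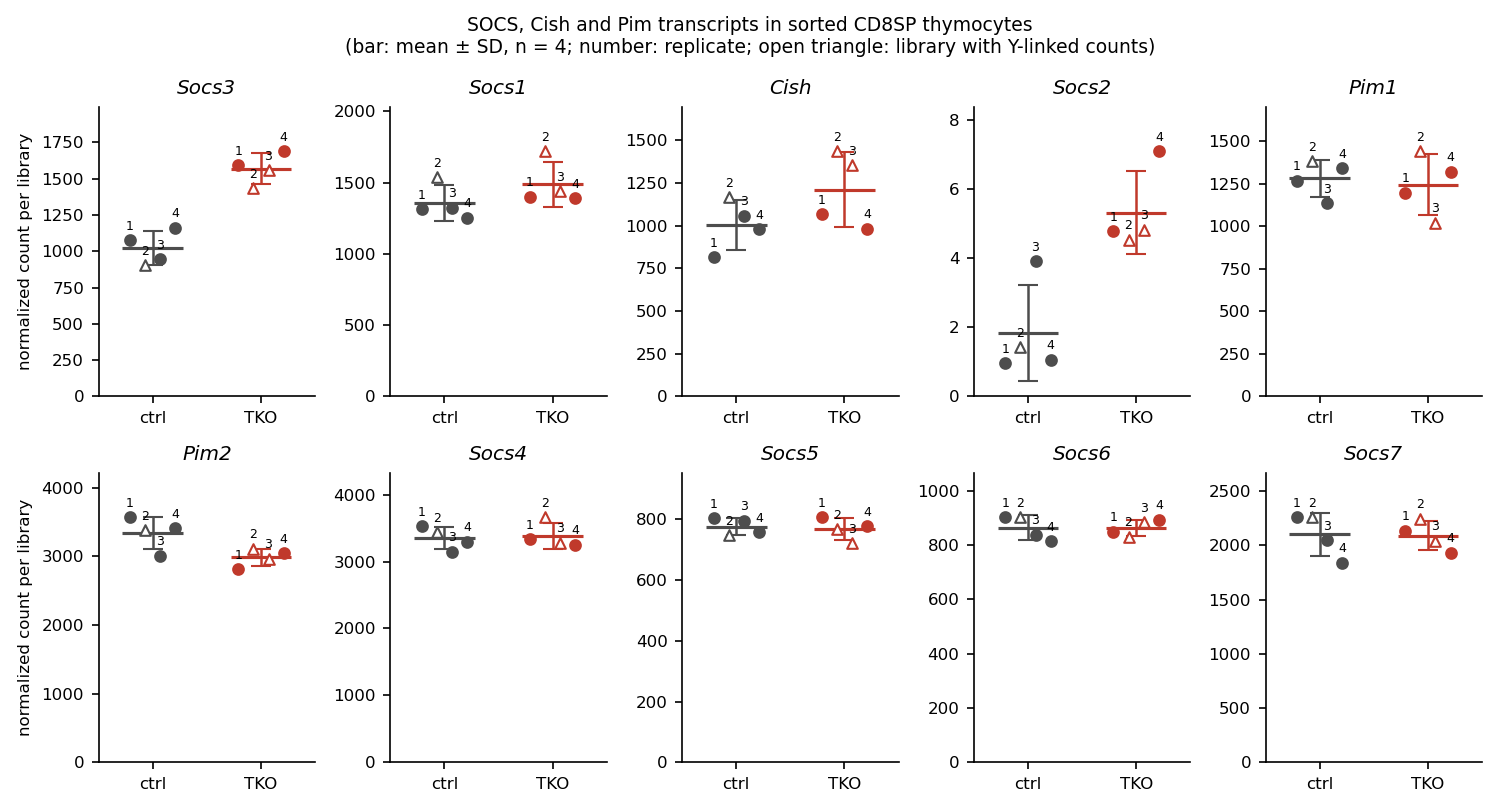
Normalized counts (counts scaled to the mean library total, vertical axes from 0) of each of the 10 genes in 4 Ndrg3ctrl and 4 Ndrg3TKO libraries, with the mean and SD of each group as bars, the replicate number beside each point and open triangles for the 3 libraries with Y-linked counts. The Socs3 points of the groups are separate, with 903 to 1163 in Ndrg3ctrl and 1435 to 1690 in Ndrg3TKO, and those of Socs2 lie at 7.11 or below.

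The targeted gene was checked first. Ndrg3 stood at 2294, 2359, 2349 and 2342 normalized counts in Ndrg3ctrl replicates 1 to 4 and at 1460, 1402, 1537 and 1601 in Ndrg3TKO. Each knockout library was below each control library, and Ndrg3 fell by 0.64 on the log2 scale (SE 0.0526, adjusted p = 1.04e-05). Gene-level counts sum over all exons, so transcripts that lack the deleted exon still count, and the controls have 1 floxed allele. Total counts per library ranged from 21126698 to 32668081. The 9 tested members had between 526 (Socs5) and 4031 (Socs4) raw counts in each library. The 12 CD8SP marker genes, Cd8a and Cd8b1 among them, summed to 7611 to 8639 CPM (counts scaled to a fixed library total) in Ndrg3ctrl and 7489 to 8135 CPM in Ndrg3TKO, and 0 of the 12 passed the test. Klf2, a transcription factor of egress-competent cells, had the smallest p among them (log2 fold change -0.26, adjusted p = 0.13), and it passed without the filter on low counts (adjusted p = 0.0207) and with Y-linked counts as a covariate (0.0323). The labels name no sex. Y-linked genes gave 340 CPM in Ndrg3ctrl replicate 2, 379 CPM in Ndrg3TKO replicate 2 and 416 CPM in Ndrg3TKO replicate 3, and at most 0.0752 CPM in the other 5 libraries.

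Socs3 (chromosome 11, 117966079 to 117970047, minus strand, GRCm38) encodes the inhibitor that binds gp130-family receptors and restrains STAT3. Its normalized counts were 1077, 903, 947 and 1163 in Ndrg3ctrl replicates 1 to 4, or 1023 ± 119 (SD, n = 4). In Ndrg3TKO replicates 1 to 4 they were 1594, 1435, 1558 and 1690, or 1569 ± 106 (SD, n = 4). The lowest knockout library was above the highest control library, and the gap between the groups was wider than the spread within either. The log2 fold change was 0.62 (SE 0.0797, 95% interval 0.45 to 0.79, adjusted p = 9.59e-04). By p it was number 29 of all tested genes, and 52 of the genes that rose had a larger log2 fold change. An exact permutation test over the 70 ways to divide the 8 libraries gave p = 0.0286 (two-sided), the smallest that 4 against 4 allow. Any gene whose groups do not overlap gives this value, as 7.04% of all tested genes would. Leaving out any 1 library gave log2 fold changes between 0.56 and 0.68, with adjusted p from 7.13e-04 to 0.0107 in edgeR. Among the 5 libraries without Y-linked counts (3 control, 2 knockout) the log2 ratio of the group means was 0.63, and among the 3 with them (1 control, 2 knockout) it was 0.73. Within the 3 runs of neighbouring column headers the log2 ratio of the group means was 0.57, 0.69 and 0.54. That the knockout libraries were above the controls in each run follows from the separation of the groups.

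The sequence upstream of Socs3 is shown because Socs3 was the member past the threshold, and that of Socs1 because SOCS1 is the other member with a kinase inhibitory region. Promoters came from RefSeq (GRCm38.p6), which held 6 of the 10 members: Cish, Socs1, Socs3, Socs4, Pim1 and Pim2. The letters TTCNNNGAA, the core that STAT dimers bind, and the wider-spaced TTCNNNNGAA, which STAT6 prefers, were searched in the 250 bases before each start, and both read the same on either strand. TTCNNNGAA occurred in 2306 of 32851 promoters (7.02%) and TTCNNNNGAA in 5.85%. Among the 6 members 1 match was found, TTCTTAGAA, whose first base lies at position -154 from the RefSeq start of Socs3. Exons annotated in GENCODE M21 covered all 250 bases searched for Cish and 188 of those searched for Socs4. The search for Cish therefore read annotated exon sequence only. Fewer bases were exonic for Socs3, Pim1 and Pim2, and 0 for Socs1. The stretch of Socs3, chr11:117969452-117969616 on the minus strand, is free of annotated exons. It lies inside an intron of a noncoding processed Socs3 transcript in GENCODE M21, whose coding Socs3 transcript starts 180 bases downstream of the RefSeq start. Those 180 bases, directly upstream of the coding transcript, were not searched. The stretch of Socs1 is chr16:10785537-10785786 on the minus strand. Both are printed 5′ to 3′ with the match in capitals.
Socs3: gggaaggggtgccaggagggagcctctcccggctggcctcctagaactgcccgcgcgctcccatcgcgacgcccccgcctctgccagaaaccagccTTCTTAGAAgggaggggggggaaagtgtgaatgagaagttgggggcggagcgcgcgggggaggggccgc
Socs1: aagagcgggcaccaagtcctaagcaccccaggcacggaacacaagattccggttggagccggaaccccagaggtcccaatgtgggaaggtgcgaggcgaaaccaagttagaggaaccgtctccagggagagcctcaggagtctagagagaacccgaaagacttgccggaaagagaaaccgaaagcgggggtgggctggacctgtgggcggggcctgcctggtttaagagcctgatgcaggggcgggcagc
The Socs1 stretch holds neither motif. The match in Socs3 is a description of letters in this window, and binding was not measured.

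Socs1 and Cish were higher on average in Ndrg3TKO without passing the test. Socs1 (chromosome 16, 10782240 to 10785536) inhibits JAK signalling downstream of common gamma chain cytokines and interferons. It had 1312, 1537, 1325 and 1254 normalized counts in Ndrg3ctrl replicates 1 to 4 and 1402, 1721, 1441 and 1390 in Ndrg3TKO. The groups overlapped, and the log2 fold change was 0.14 (95% interval -0.035 to 0.31, adjusted p = 0.575). Cish (chromosome 9, 107296026 to 107302784), a STAT5 target whose product dampens IL-2-family and T cell receptor signalling, had 817, 1168, 1058 and 980 normalized counts in Ndrg3ctrl replicates 1 to 4. In Ndrg3TKO it had 1068, 1437, 1353 and 983. The Ndrg3TKO mean of 1210 ± 219 (SD, n = 4) was above the Ndrg3ctrl mean of 1006 ± 147 (SD, n = 4), yet the libraries of the groups overlapped. The log2 fold change of Cish was 0.27 (95% interval -0.036 to 0.58, adjusted p = 0.53), the widest interval of any tested member. The column headers are numbers that fall into 3 runs of neighbours, of 1, 2 and 1 mice per genotype. Within these runs the log2 ratio of the group means of Cish was 0.39, 0.33 and 0.0038, and that of Socs1 was 0.096, 0.14 and 0.15. What the runs stand for is not given in the sources used here. With the runs as a block, a setting chosen after seeing the data, the adjusted p was 0.107 for Cish and 0.428 for Socs1. With the replicate number as a block Cish passed (log2 fold change 0.26, adjusted p = 0.0194 in edgeR) and Socs1 did not (adjusted p = 0.12). The labels do not say that same-numbered mice were paired.

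Cish and Socs1 shared a pattern across mice that cut across genotype. For both, the 3 libraries with Y-linked counts were the 3 highest of the 8. Cish was at 1168 to 1437 normalized counts in those 3 libraries and at 817 to 1068 in the other 5. Socs1 was at 1441 to 1721 and at 1254 to 1402. Among all tested genes 545, or 3.72%, were likewise higher in each of these 3 libraries than in each of the other 5, and 2 of the 9 tested members were. This division of the libraries was chosen from Y-linked counts and not from the labels, and with 1 control and 2 knockout mice among the 3 it is not balanced over genotype. All 3 also belong to the run of neighbouring column headers with 2 mice per genotype, so Y-linked counts and that run cannot be fully told apart. The remaining library of that run, Ndrg3ctrl replicate 3, had 1058 normalized counts for Cish and 1325 for Socs1. With Y-linked counts as a covariate the log2 fold change was 0.16 for Cish (adjusted p = 0.299) and 0.083 for Socs1 (adjusted p = 0.501). Without Ndrg3TKO replicate 2, 1 of the 3 libraries, it was 0.18 for Cish and 0.059 for Socs1. For Socs3, whose 3 values with Y-linked counts ran from 903 to 1558, and the other 7 members the 2 sets of libraries overlapped.

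Socs2 (chromosome 10, 95385362 to 95417180), the regulator of growth hormone signalling, was close to absent. It had 1, 1, 4 and 1 raw counts in Ndrg3ctrl replicates 1 to 4 and 5, 5, 5 and 8 in Ndrg3TKO, so every knockout library had more than every control library at a level near the floor of 3 counts. The sums were 7 and 23 counts, a ratio of 2.82 after scaling with an exact 95% interval of 1.17 to 7.79 that covers counting error only. Socs2 did not pass the filter on low counts. Without that filter its log2 fold change was 1.45 (edgeR, adjusted p = 0.602), a fitted value that depends on the prior count.

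The 4 members with long N-termini lay near the line of no change. Socs4, an adaptor linked to EGF receptor turnover, had 3146 to 3531 normalized counts in Ndrg3ctrl and 3251 to 3663 in Ndrg3TKO. Its log2 fold change was 0.013 (95% interval -0.11 to 0.13). Socs5, described as an inhibitor of IL-4 receptor signalling, had 748 to 804 in Ndrg3ctrl and 720 to 807 in Ndrg3TKO, with a log2 fold change of -0.016 (95% interval -0.15 to 0.12). Socs6, which binds KIT and other tyrosine kinase receptors, had 814 to 903 and 831 to 893, and its log2 fold change was 0.0006 (95% interval -0.13 to 0.14). Socs7, an adaptor that binds NCK, had 1842 to 2261 and 1934 to 2248, with a log2 fold change of -0.0071 (95% interval -0.16 to 0.14). For each of the 4 the interval lay within 0.2 of 0 on the log2 scale, so that a change of the size seen in Socs3 lies outside it. The direction of Socs4, Socs5 and Socs6 was reversed with Y-linked counts as a covariate, and that of Socs7 when some libraries were left out.

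**Figure D2:**
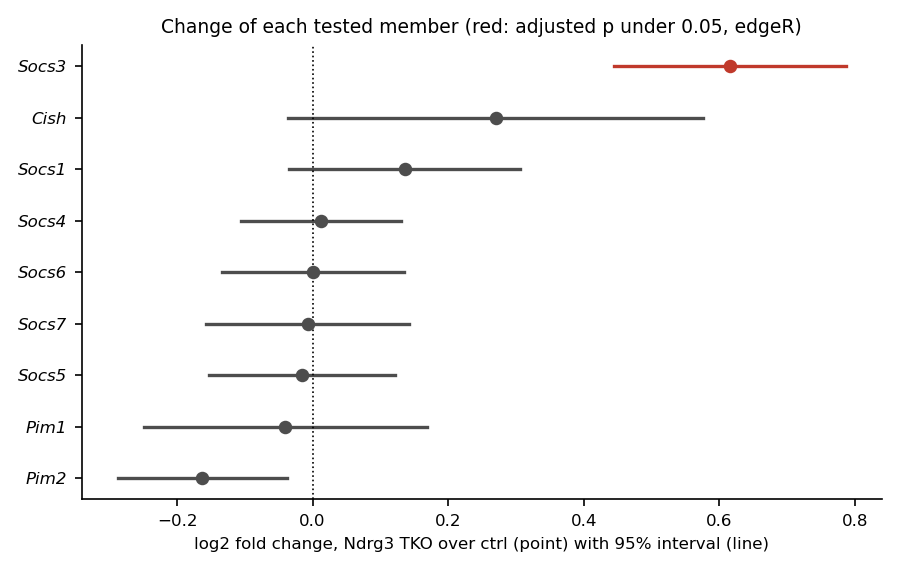
Log2 fold change of Ndrg3TKO over Ndrg3ctrl (horizontal axis) for the 9 tested members, with points for the estimate, lines for the 95% interval and red for an adjusted p under 0.05. Socs3 is the red point at 0.62, the interval of Pim2 ends at -0.038, and the intervals of the other 7 contain 0.

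The Pim kinases did not rise with Socs3. Pim2 (X chromosome, 7878262 to 7883432) had 3572, 3379, 3009 and 3408 normalized counts in Ndrg3ctrl replicates 1 to 4 and 2815, 3115, 2969 and 3043 in Ndrg3TKO. Ndrg3ctrl replicate 3 lay within the range of the knockout libraries, and the other 3 controls were above it. The log2 fold change was -0.16 (SE 0.0581, 95% interval -0.29 to -0.038, unadjusted p = 0.0142, adjusted p = 0.286 over all genes in edgeR). Pim1 (chromosome 17, 29490753 to 29496112) had 1270, 1384, 1136 and 1342 in Ndrg3ctrl and 1199, 1443, 1021 and 1321 in Ndrg3TKO, and the groups overlapped. Its log2 fold change was -0.040 (95% interval -0.25 to 0.17, adjusted p = 0.915), and it became 0.044 without Ndrg3TKO replicate 3. Cish and Pim1 overlap antisense genes, which held 3 (Gm17040) and 2 (Gm17041) counts over the 8 libraries at Cish and 22 (Gm26885) at Pim1.

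Per length, the order of the members differed between the groups in the places of Socs3, Socs4 and Pim1. Levels here are CPM per kilobase of exon, with lengths over all annotated exons. In Ndrg3ctrl Pim2 was the highest at 41.3 ± 2.94 (SD, n = 4). It was followed by Socs4 at 16.8, Socs1 at 16.1, Pim1 at 13.2, Socs3 at 12.2, Socs7 at 9.999, Cish at 5.41, Socs5 at 4.18, Socs6 at 2.63 and Socs2 at 0.00668. Neighbours whose libraries overlapped were Socs4 with Socs1 and Pim1 with Socs3. In Ndrg3TKO Pim2 again led at 36.9 ± 1.59 (SD, n = 4), and Socs3 came next at 18.8, ahead of Socs1 at 17.7, Socs4 at 17.0 and Pim1 at 12.8. The libraries of Socs3, Socs1 and Socs4 overlapped each other there, as did those of Pim1 and Socs7. Socs3 thus moved from the fifth place to the second, where it could not be told from Socs1 or Socs4 by its libraries. The exonic length of Cish, 6419 bases, includes long isoforms, so its level per length is lower than it would be over the coding transcript.

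**Figure D3:**
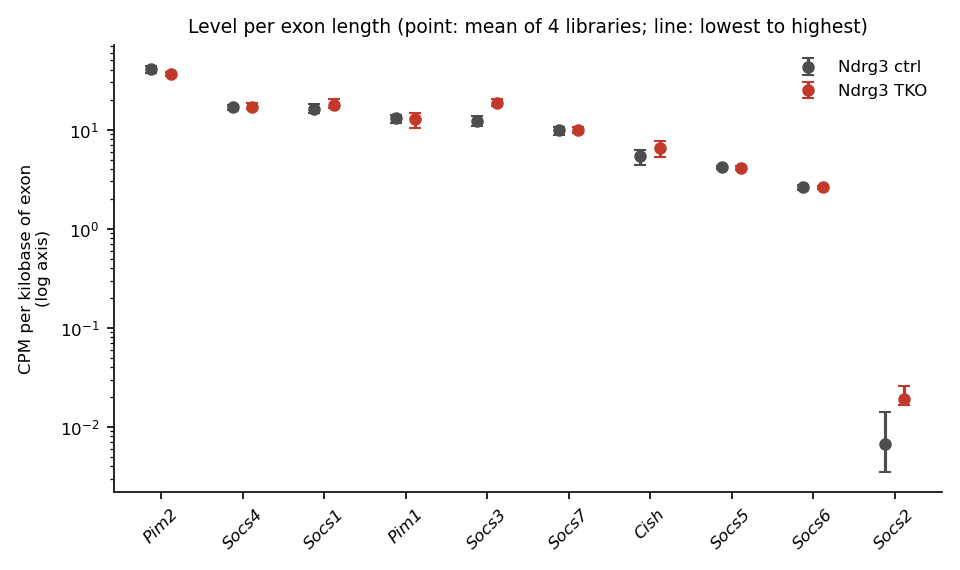
Mean level of each member per exonic length (CPM per kilobase of exon, log axis) in Ndrg3ctrl and Ndrg3TKO, with lines from the lowest to the highest of 4 libraries and genes ordered by Ndrg3ctrl. Pim2 is the highest in both groups at 41.3 and 36.9, Socs2 the lowest, and Socs3 is the 1 gene of the 9 tested whose ranges in the groups do not overlap.

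Around the members, the genes of the signalling pathway were taken list by list. Of 11 JAK and STAT genes 0 passed, with a median log2 fold change of 0.041. Stat5a, a transducer of IL-7 signals, had the smallest p among them (log2 fold change -0.17, adjusted p = 0.208). It had 4363 to 5043 normalized counts in Ndrg3ctrl and 3947 to 4341 in Ndrg3TKO. With Y-linked counts as a covariate it passed (-0.21, adjusted p = 0.0232). Stat5b, the other STAT5 gene and named after its values were seen, had higher counts. Its mean was 9476 in Ndrg3ctrl and 9896 in Ndrg3TKO (log2 fold change 0.063, adjusted p = 0.748). Of 19 tested cytokine receptor chains 1 passed, and 9 had an unadjusted p under 0.05, beside 10.9% of all tested genes. Among those 9, and named after their values were seen because SOCS3 binds the gp130 receptor complex, were Il6st, the gp130 chain (log2 fold change 0.24, adjusted p = 0.164), and Il6ra, the IL-6 receptor (-0.22, adjusted p = 0.227). Il12rb1 (-0.33, adjusted p = 0.0923) and Il12rb2 (-0.46, adjusted p = 0.12), also among the 9, had smaller p than Il6st and Il6ra. The gene that passed was Il10ra, the ligand-binding chain for IL-10, which acts through STAT3. It fell by 0.58 on the log2 scale (adjusted p = 0.0339), from 340 ± 42.4 to 227 ± 29.9 (SD, n = 4 each). The call was lost without Ndrg3TKO replicate 1 (adjusted p = 0.103) or 3 (0.116) and without Ndrg3ctrl replicate 3 (0.0936) or 4 (0.105). Receptor chains as a list had a median log2 fold change of -0.016.

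Other ways of stopping the signal were also examined. Among 15 further inhibitors of JAK-STAT signalling (phosphatases, PIAS proteins and others) 0 passed, with a median log2 fold change of 0.015 and a range from -0.18 to 0.23. Dusp2, a nuclear phosphatase, had the smallest p (log2 fold change -0.18, adjusted p = 0.407), and passed with Y-linked counts as a covariate (-0.24, adjusted p = 0.0219). Of 8 tested partners of the SOCS box ligase, such as elongins and cullins, 0 passed and the range was -0.097 to 0.067. Rbx1, the RING subunit of cullin ligases, had the smallest p (adjusted p = 0.614).

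The list medians of other STAT target genes did not rise with Socs3, while single genes moved in both directions. Of 14 tested further targets of STAT5 and STAT3 1 passed, with a median log2 fold change of -0.062. At an unadjusted p under 0.05 there were 5 of the 14, beside 10.9% of all tested genes. The gene that passed was Bcl6, a transcriptional repressor, which rose from 851 ± 78.4 to 1295 ± 144 normalized counts (SD, n = 4 each, log2 fold change 0.60, adjusted p = 0.00223). Each Ndrg3TKO library was above each Ndrg3ctrl library for Bcl6. The others of the 5 are named after their values were seen. Higher were Lif (1.47, adjusted p = 0.0823), with the groups separate at low counts, and Il2ra (0.62, adjusted p = 0.422). Lower were Osm (-0.29, adjusted p = 0.22) and Myc (-0.23, adjusted p = 0.428). Cdkn1a, not tested, was at 4.47 normalized counts in Ndrg3ctrl and 10.7 in Ndrg3TKO, with each knockout library above each control. Of 8 genes listed as STAT6 targets 4 were tested and 2 passed, in opposite directions. Eomes, the T-box factor of memory-type CD8 cells, fell by 1.26 on the log2 scale (adjusted p = 1.70e-04). Gata3, a zinc finger factor used throughout T cell development, rose by 0.49 (adjusted p = 5.25e-04).

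**Figure D4:**
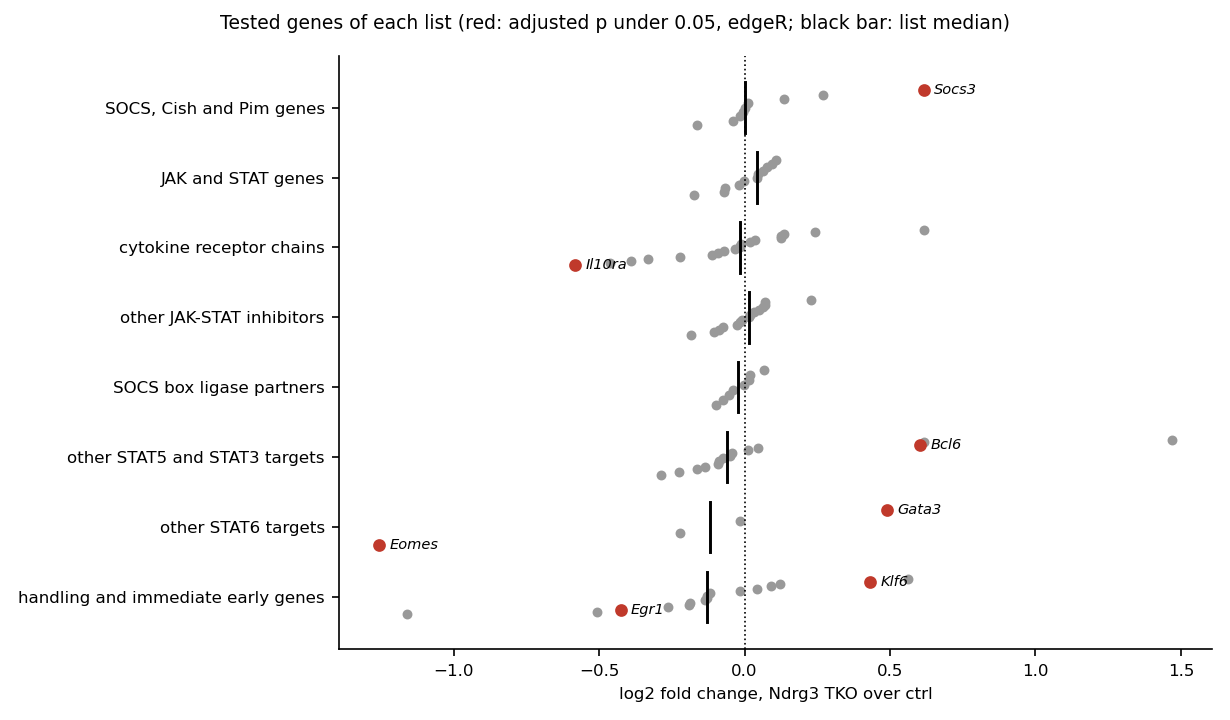
Log2 fold change (horizontal axis) of each tested gene in 8 lists (rows), with red points and names for genes with an adjusted p under 0.05 and a black bar at the list median. List medians lie between -0.13 and 0.041, and Socs3, Bcl6, Gata3 and Klf6 are the named genes to the right of 0.

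Immediate early genes and others that cell isolation can induce were followed as well. Of 16 tested genes of that list 2 passed and 5 had an unadjusted p under 0.05, beside 10.9% of all tested genes. The median log2 fold change was -0.13, and the list summed to 1295 to 1562 CPM in Ndrg3ctrl and 1259 to 1465 CPM in Ndrg3TKO. Klf6, a zinc finger factor, rose by 0.43 (adjusted p = 0.00627). Egr1, an early gene downstream of T cell receptor and MAP kinase signals, fell by 0.43 on the log2 scale (adjusted p = 0.0422), from 6015 ± 685 to 4475 ± 475 normalized counts (SD, n = 4 each). The Egr1 call was lost without any 1 of Ndrg3ctrl replicates 1 (adjusted p = 0.134), 2 (0.0683) and 3 (0.0932) or Ndrg3TKO replicates 2 (0.0940), 3 (0.0833) and 4 (0.0789). The part of these genes in the Socs3 result was not tested.

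Markers of other cells were low beside the CD8SP markers. In these bulk libraries, a different share of cells of a type and a different amount of RNA per cell cannot be told apart. Of 6 NK and NKT markers 2 were tested, Klrb1c and Tbx21, and 1 rose: Klrb1c went from 8.83 ± 6.71 to 51.4 ± 8.66 normalized counts (SD, n = 4 each, adjusted p = 0.00149). The 6 genes summed to 2.18 to 2.60 CPM in Ndrg3ctrl and 2.59 to 3.74 CPM in Ndrg3TKO, with Ncr1 at 0 in each library. Of the untested markers, named after their values were seen, Zbtb16, the factor of NKT cells, was at 7.09 in Ndrg3ctrl and 1.61 in Ndrg3TKO with each knockout library below each control. Klrk1 was at 11.7 and 3.50 normalized counts with overlap. B cell markers summed to 11.1 to 13.2 CPM in Ndrg3ctrl and 8.45 to 9.43 CPM in Ndrg3TKO, with Ms4a1 at 0 in each library. Most of that was Cd79b (log2 fold change -0.43, adjusted p = 0.0529), which passed with DESeq2 (adjusted p = 0.00582), without the filter (0.0211) and with Y-linked counts as a covariate (0.0286). Gamma delta T cell markers summed to 12.5 to 16.4 CPM and 14.7 to 22.5 CPM, with Trdv4 at 0, and Cd163l1 had the smallest p (log2 fold change 1.49, adjusted p = 0.216). Each Ndrg3TKO library was above each Ndrg3ctrl library for Cd163l1, and it passed with Y-linked counts as a covariate (1.75, adjusted p = 7.12e-04). The other gamma delta markers with counts, named after their values were seen, did not rise. Trdc was at 351 normalized counts in Ndrg3ctrl and 344 in Ndrg3TKO (log2 fold change -0.031, adjusted p = 0.954). Sox13, not tested, was at 8.27 and 4.84 with overlap. CD4 and double-positive thymocyte markers summed to 19.4 to 31.1 CPM and 23.8 to 32.3 CPM, and 0 of 5 tested passed. Dntt, which adds nucleotides during receptor rearrangement, had the smallest p (log2 fold change 0.45, adjusted p = 0.0783), and passed with DESeq2 (adjusted p = 0.0156), without the filter (0.00626), with Y-linked counts as a covariate (0.0271) and without Ndrg3ctrl replicate 1 (0.0285). Myeloid and dendritic markers summed to at most 2.70 CPM in any library and stromal markers to at most 5.31 CPM, and 0 of 2 tested passed in each list. In those lists Flt3 (log2 fold change -0.21, adjusted p = 0.885) and Col1a1 (-0.51, adjusted p = 0.544) had the smallest p. The part of these cells in the Socs3 result was not tested.

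The genes that ran most like the 2 members with the smallest p were found by Pearson correlation of log2 CPM over the 8 libraries, which share genotype and depth differences. For Socs3 they were Akap17b (r = 0.985), Mpp1 (0.980), Dennd4a (0.976), Zfp93 (0.975) and Lrrc23 (0.975). The choice by r over both groups favours genes with the direction of Socs3. After removal of group means, r with Socs3 was between 0.79 (Lrrc23) and 0.95 (Akap17b). Of these genes, Dennd4a (log2 fold change 0.81, adjusted p = 1.14e-05) and Lrrc23 (1.12, adjusted p = 0.0037) passed the test and also rose. Akap17b (0.30, adjusted p = 0.166), Mpp1 (0.17, adjusted p = 0.179) and Zfp93 (0.41, adjusted p = 0.225) did not pass. For Pim2 they were Haus4 (r = 0.989), Cyb561d1 (0.971), Serpinb9 (0.965), Csf2ra (0.954) and Kcnab3 (0.953), and 0 of these 5 passed.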

How the data were processed

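Total RNA was extracted with the RNeasy Plus Micro kit and sequenced as ribosomal RNA-depleted, stranded libraries. Per the methods and the submitters' processing notes, adapters were removed with cutadapt, alignment to GRCm38 used STAR with GENCODE gene models, and featureCounts assigned reads to genes. The values that the authors deposited are raw counts without normalization. The strand setting is not given in the sources used here. Every one of the 8 sample columns was used. Symbols, coordinates and exonic lengths were from GENCODE M21 (GRCm38), matched by identifier for 98.7% of the 47937 genes.

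Counts were filtered (filterByExpr), scaled by TMM and tested with edgeR 4.0.16 in R 4.3.3 (glmQLFit, robust, and glmQLFTest), with Benjamini-Hochberg adjustment over 14633 tested genes and 0.05 as the threshold. Standard errors were taken from the log2 fold change and its F statistic (size of the change over root F). For normalized counts, each library was brought to the mean library total after TMM scaling. Alternatives were DESeq2 1.42.0, RLE size factors, no filter, Y-linked counts as a covariate, a replicate block, each library left out and, chosen after seeing the data, runs of neighbouring column-header numbers as a block. The scripts were tested on simulated counts. Total counts were 21126698 to 32668081 per library, and replicates of a group differed by more than sampling noise.

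The members and lists were chosen with earlier results of these data known. Genes were named by 1 rule: all members and Ndrg3, in each list the genes past the threshold (at most the 6 of smallest p) or otherwise the gene of smallest p, and for the 2 members of smallest p the 5 genes most correlated with each. Pseudocount 0.5 was used for those correlations. The result of 1 gene list is not reported here.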

Additional observations from a re-analysis of the deposited data

Results flagged for a closer look

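Groups of 4 libraries were examined for library totals, the members and the genes chosen by the naming rule, in each genotype. Of 78 such groups, 5 had a library that stood apart by Dixon's test, where about 1 in 20, or 3.9, are expected by chance. Socs1 in Ndrg3TKO replicate 2 was at 1721 normalized counts, beside 1390 to 1441 in the other 3 knockout libraries. Socs2 was at 3.92 in Ndrg3ctrl replicate 3, beside 0.97 to 1.42, and at 7.11 in Ndrg3TKO replicate 4, beside 4.54 to 4.83, which are differences of a few counts. Dntt was at 541 in Ndrg3ctrl replicate 1, beside 410 to 428. Csf2ra, named for its likeness to Pim2, was at 107 in Ndrg3ctrl replicate 3, beside 125 to 127.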

How the results depend on the processing

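The call of Socs3 held under each alternative run (log2 fold change 0.56 to 0.68). The count of members past the threshold, 1, stayed at 1 under each alternative but the replicate block. Same-numbered Ndrg3ctrl and Ndrg3TKO libraries correlated, after removal of group means, at r = 0.171, 0.394, -0.0579 and 0.281 for replicates 1 to 4, so not every pair was over 0.1 and the numbers were not taken to pair the mice; each library except the replicate 3 pair correlated best with its own number. With the replicate block 2 members passed, Socs3 and Cish (log2 fold change 0.26, adjusted p = 0.0194), and 800 genes (435 higher, 365 lower, 164 of them among the 168 of the fit without a block). Cish was higher in the knockout in each of the 4 same-numbered pairs, though in replicate 4 only by 983 against 980 normalized counts. Socs1 and Socs3 were likewise higher in each pair. The block also gained Akap17b (adjusted p = 0.041), Cd163l1 (5.95e-04), Cd79b (0.00674), Dntt (5.34e-04), Dusp2 (0.0265), Klf2 (4.72e-04), Serpinb9 (0.0265) and Stat5a (0.0154). With the header runs as a block 1 member and 233 genes passed, and Cd163l1 (0.0054), Cd79b (0.0449) and Dntt (0.0054) were gained.

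Over all genes, 168 calls became 309 with DESeq2 (191 higher, 118 lower), 274 without a filter, 437 with Y-linked counts as a covariate and 90 to 158 with a library left out: 100, 110 and 104 without Ndrg3ctrl replicates 1, 3 and 4, and 106, 90 and 107 without Ndrg3TKO replicates 1, 3 and 4. The cause was not tested. With the Y-linked covariate Socs4 (-0.0043), Socs5 (0.0049) and Socs6 (-0.0047) changed sign near 0. With a library left out, log2 fold changes ran from 0.18 to 0.36 for Cish, 0.059 to 0.20 for Socs1, -0.12 to 0.044 for Pim1, -0.028 to 0.040 for Socs4, -0.041 to 0.013 for Socs5, -0.029 to 0.023 for Socs6, -0.067 to 0.031 for Socs7 and -0.38 to 0.033 for Flt3. Depth limits Socs2, at 1 to 8 counts per library.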
